A study of Mus musculus with 4 samples.

Results

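Chromatin accessibility at 10 immediate early genes was compared between hematopoietic stem cells (HSCs) with and without the Mediator subunit Med23. The genes were the EGR zinc finger factors Egr1, Egr2 and Egr3, the AP-1 subunits Fos, Fosb, Fosl2, Jun, Junb and Jund, and Ier2. Every ATAC-seq peak that overlapped one of these genes or the 30 kb on either side of it was taken, and overlapping WT and KO peaks were joined into one region. This gave 53 regions for 10 of the 21728 protein-coding genes, out of 45475 regions in all. No region lay in the windows of more than 1 of the genes.

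ATAC-seq maps open chromatin with a transposase that inserts sequencing adapters into accessible DNA. The labels name 4 samples of sorted LSK CD150+CD34-CD48- bone marrow cells from adult C57BL/6 mice. Of these, 2 carried floxed Med23 alleles without a cre (WT) and 2 carried the same alleles with Mx1-cre (KO). By the study's methods Mx1-cre, an interferon-responsive transgene active in blood cells and also in other tissues, was induced with poly(I:C), and the sorting gate was given there without CD34. The labels give 1 shared peak list for the pair of samples of each genotype, so 1 WT list was set against 1 KO list. No value below has a replicate check, no test between genotypes was possible, and intervals cover counting error only.

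Immediate early genes are transcribed within minutes of a stimulus, from promoters that are already open, without new protein synthesis. Serum response factor (SRF) binds CArG boxes, the core of serum response elements, upstream of Egr1, Egr2 and Fos, and ETS-family partners such as ELK1 bind with it at ETS motifs next to the box. CREB binds cAMP response elements. MED23 is the Mediator subunit that contacts phosphorylated ELK1, and it is known for its part in Egr1 induction in embryonic stem cells and fibroblasts. FOS and JUN proteins pair to form AP-1, and JUNB limits the expansion of HSCs. EGR1 is known to keep HSCs quiescent and in the marrow niche.

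There were 37919 WT and 37639 KO peaks, with median summit pileups of 18 and 19. The pileup is the number of extended sequencing tags stacked at a summit, recovered from the caller's statistics. Whether such a tag was an extended read or a whole read pair is not stated. Read totals are unknown. Promoter regions of the HSC marker genes were present in both lists for 7 of 10, against 57.4% of all protein-coding genes. None was found at Ly6a, Slamf1 and Procr. Of 17 annotated marker genes of T, B, granulocytic, monocytic and erythroid cells, 3 had one in both lists, Pax5 and Epor among them, and 1 in the WT list only (S100a8). The Med23 promoter, with a WT pileup of 64 and a KO pileup of 85, does not tell whether the floxed part was deleted.

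The sequences upstream of the 10 genes were examined first, because they carry the elements through which these genes are switched on. In the 500 bp upstream of the start, a CArG box was found at 5 of the 10 genes, Egr1, Egr2, Egr3, Fos and Fosb. The same search over 54081 starts of protein-coding transcripts found one at 2.48%. Egr1 held 5 such boxes, Egr2 held 2, and the other genes 1 each. Those of Egr2, Egr3, Fos and Fosb are shown with 10 flanking bases on each side (GRCm38, in the direction of transcription, box in capitals), at chr10:67537484-67537513, chr10:67537787-67537816, chr14:70076833-70076862, chr12:85473571-85473600 and chr7:19310298-19310327.
Egr2 at -375: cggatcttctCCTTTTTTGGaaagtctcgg
Egr2 at -72: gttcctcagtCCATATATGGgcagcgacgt
Egr3 at -471: ctttgtctgtCCATATATGGgcagctacgt
Fos at -309: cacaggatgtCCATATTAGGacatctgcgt
Fosb at -271: tggccgagctCCTTATATGGctaattgcgt

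The Egr2 box at -72 and the Egr3 box had the same core and were identical at 25 of 30 bases. The other pairs were identical at 12 to 20 of 30 bases. A cAMP response element, TGACGTCA, was found in the same window at Jund and Ier2, 2 of the 10 genes against 2.30% of all starts. Matches to the EGR motif GCGNGGGCG lay upstream of Jun, Fosb and Jund, 3 of the 10 genes against 8.08% of all starts, with 3 matches at Jund. The GC content of these 3 windows was 65.6%, 65% and 64.4%, against a median of 52% over all starts. The AP-1 motif TGANTCA was found at Fos alone, against 11.4% of all starts. No match to the ETS motif CCGGAAGT or the RUNX motif TGTGGTT was found in the windows of the 10 genes, against 4.61% and 8.55% of all starts. A match is only a string of letters and does not show that a factor was bound. Each motif was searched as a single fixed pattern, so the lack of a match does not show that a factor has no site there.

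**Figure D1:**
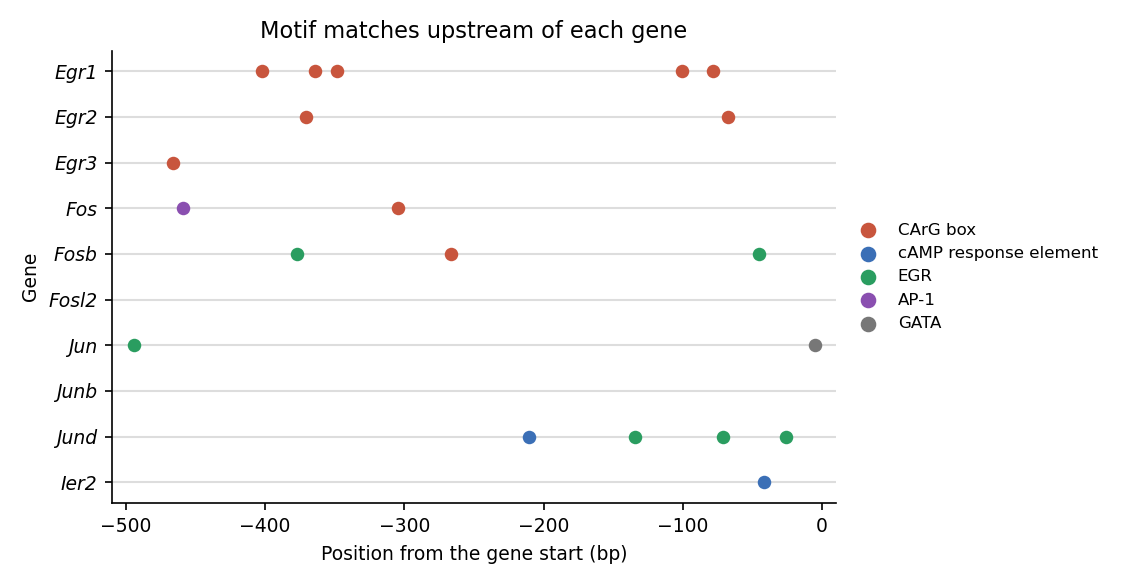
Position of motif matches (horizontal axis, bp from the gene start) in the 500 bp upstream of each of the 10 genes (rows), with 1 point per match coloured by motif. CArG boxes appear at 5 genes and are densest at Egr1, with 5 boxes, while Fosl2 and Junb have no match to any of the motifs shown.

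The promoters were open in both genotypes. All 10 genes had a promoter region, with a summit within 1000 bp of a protein-coding start, in both lists, against 57.4% of all protein-coding genes. Fosb had 2 such regions, so that 11 of 11 promoter regions were shared, against 88% of all coding promoter regions. The 0 of 11 found in 1 list only allow a share of up to 27.3%, while 6.29% of all coding promoter regions were in WT only and 5.73% in KO only. The median summit pileup of the main promoter region, the strongest of each gene, was 46 in WT and 43 in KO over the 10 genes. Over the 12411 protein-coding genes with such a value in both lists it was 35 in each.

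At Jun the open region was the highest and the broadest of the group. The JUN protein is the archetypal partner of FOS in AP-1. Its WT summit pileup was 155 and its KO pileup 126, at percentiles 99.03 and 96.9 of shared coding promoters. A single peak of 4448 bp in WT and of 4025 bp in KO ran across the gene (chromosome 4, 95049013 to 95053987 over both lists), covering 100% of its body in WT and 70.9% in KO. Scaled to the genome-wide background of each list, KO stood at -0.21 relative to WT on the log2 scale (95% exact binomial interval -0.56 to 0.14), which was within counting error. By the authors' fold enrichment the direction turned, to 0.48. The fold enrichment at Jun was 5.08 in WT and 7.07 in KO, below the 8.37 and 12.8 at Egr2. The 250 bases upstream of the Jun start are shown because its summit pileup was the highest of the group (chr4:95052223-95052472, minus strand, with a GATA motif AGATAAG in capitals).
Jun upstream: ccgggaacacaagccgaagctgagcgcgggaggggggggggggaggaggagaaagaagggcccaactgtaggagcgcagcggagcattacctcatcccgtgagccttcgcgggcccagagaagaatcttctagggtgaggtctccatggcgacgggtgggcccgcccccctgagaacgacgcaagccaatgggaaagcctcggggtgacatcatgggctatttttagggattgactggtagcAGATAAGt

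Among the EGR genes, whose products bind GC-rich sites through 3 zinc fingers, Egr1 and Egr2 were strongly open and Egr3 weakly. The Egr1 promoter had a WT pileup of 89 and a KO pileup of 76, which is -0.14 on the log2 scale (-0.60 to 0.32) but 0.46 by the fold enrichment. Egr2 (chromosome 10, 67536079 to 67538213) had a WT pileup of 77 and a KO pileup of 99, or 0.45 on that scale (0.004 to 0.90). By pileup Egr1 was the stronger of the pair in WT and Egr2 in KO, but their counting intervals overlapped within each list. The fold enrichment was higher at Egr2 in both lists, 8.37 against 6.86 in WT and 12.8 against 9.42 in KO. Both regions were broad, 1688 and 1703 bp at Egr1 and 2016 and 1816 bp at Egr2.

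Egr3 showed the lowest ratio of all 40 shared sites. Its promoter region (chromosome 14, 70076553 to 70077390) had a WT pileup of 25 and a KO pileup of 12. The log2 ratio of -0.97 (-2.10 to 0.07) stood at percentile 0.33 of shared coding promoters. The peak was 838 bp wide in WT and 268 bp in KO, where it lay at percentile 0.606 by width. The smallest KO peak was 249 bp wide. The CArG box at -471 lay inside the peak of both lists. Egr3 had the 1 main promoter of the 10 that was at least 1.5-fold lower in KO, against 3.17% of those of all protein-coding genes. No main promoter was at least 1.5-fold higher, against 7.3% of all. The sequence upstream of the first annotated start is shown because the WT peak lay over all of it and the narrower KO peak over its 5′ end (chr14:70076953-70077202, plus strand, with no motif match).
Egr3 upstream: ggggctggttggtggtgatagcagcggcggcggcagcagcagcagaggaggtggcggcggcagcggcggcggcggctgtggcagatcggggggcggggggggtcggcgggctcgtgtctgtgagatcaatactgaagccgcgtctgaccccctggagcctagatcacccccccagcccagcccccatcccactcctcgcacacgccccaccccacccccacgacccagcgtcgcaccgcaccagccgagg

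The FOS-family promoters were of middling height. FOS proteins bind DNA as dimers with partners such as JUN proteins. Fos (chromosome 12, 85473023 to 85474786) had a WT pileup of 35 and a KO pileup of 40 (log2 ratio 0.28, -0.41 to 0.98). The main Fosb region lay inside the gene, 1.4 kb downstream of its first start (chromosome 7, 19307882 to 19309069), with a WT pileup of 47 and a KO pileup of 46 (0.05, -0.56 to 0.67). A second Fosb region just upstream of that start, which holds the CArG box, had 19 in WT and 25 in KO (0.48, -0.44 to 1.42). Fosl2, which encodes the FOS relative FRA-2 (chromosome 5, 32134990 to 32136327), had 44 in WT and 34 in KO (-0.29, -0.98 to 0.39, and 0.11 by the fold enrichment). None of these FOS-family intervals lay away from 0.

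The remaining JUN-family promoters differed in sign. Junb (chromosome 8, 84978512 to 84979087) had a WT pileup of 37 and a KO pileup of 24. Its log2 ratio of -0.54 (-1.34 to 0.24) stood at percentile 4.46 of shared coding promoters. As at Egr3 the KO peak was narrow, 274 bp against 576 bp in WT. Both KO peaks were near the smallest width in that list, 249 bp. Jund, the JUN member that most cells express steadily (chromosome 8, 70698428 to 70701684), had 61 in WT and 69 in KO (0.26, -0.25 to 0.78). Ier2, which encodes a small nuclear protein induced together with FOS (chromosome 8, 84662107 to 84663121), had 45 in WT and 33 in KO (-0.36, -1.06 to 0.32, and 0.22 by the fold enrichment). Its upstream sequence is shown for the cAMP response element, in capitals, close to the start (chr8:84662853-84663102, minus strand).
Ier2 upstream: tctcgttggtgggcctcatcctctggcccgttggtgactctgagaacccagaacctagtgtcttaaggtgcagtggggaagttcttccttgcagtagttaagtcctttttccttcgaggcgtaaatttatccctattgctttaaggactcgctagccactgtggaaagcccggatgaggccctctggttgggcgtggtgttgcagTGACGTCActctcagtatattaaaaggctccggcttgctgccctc

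**Figure D2:**
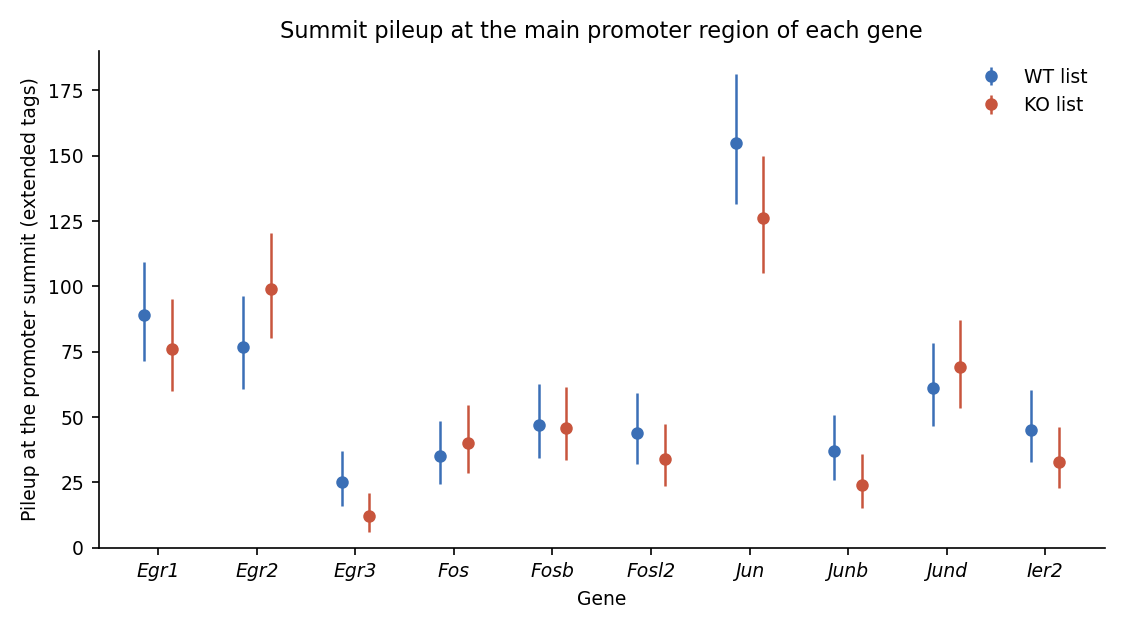
Summit pileup (vertical axis, extended tags) at the main promoter region of each gene in WT (blue) and KO (red), with exact 95% Poisson intervals for counting error. Jun is highest in both lists (155 and 126) and Egr3 in KO lowest (12), and the WT and KO intervals overlap at every gene.

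Over the 10 main promoters the median log2 ratio was -0.18, against 0.09 over all protein-coding genes, and 6 of 10 were below 0, against 38.1% of all. The ratios ran from -0.97 at Egr3 to 0.45 at Egr2. By the authors' fold enrichment, which divides the summit by its surroundings, the median was instead 0.33, against 0.28 over all genes, and 2 of 10 (Egr3 and Junb) were below 0, against 18% of all. The sign of the group median therefore depended on the scale. With promoters defined within 2500 bp of a start, the median was 0.019.

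The 2 scales differed because the local background of the summits, to which the peak itself contributes, was lower in KO. The local background is the tag level that the caller took around a peak, by default from a window of 10 kb that includes the peak. It was examined after the pileups had been seen. At Jun it was 29.7 tags in WT but 17.0 in KO, which is -0.72 on the log2 scale over the genome-wide background. At Egr1 (promoter region on chromosome 18, 34859866 to 34861591) it was 12.1 in WT and 7.17 in KO (-0.67), and at Ier2 10.0 in WT and 5.99 in KO (-0.66). These 3 of 10 genes were at least 1.5-fold lower in KO, against 9.02% of all protein-coding genes and 5.74% of those with a mean local background of at least 5.

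The other genes were nearer to the rest of the genome. The ratio was -0.49 at Fos, -0.48 at Fosl2, -0.44 at Junb, -0.38 at Egr3, -0.22 at Fosb, -0.20 at Egr2 and -0.19 at Jund. The median of the 10 was -0.46, against -0.25 over all protein-coding genes. The Jun level was at percentile 99.97 of shared coding promoters in WT and 99.9 in KO, so that 13 promoters had a local background within 25% of it. Around Ier2 the neighbouring sites at -1.3, 2.8 and 5.9 kb, whose windows overlap that of the promoter, gave -0.64, -0.68 and -0.69. Around Egr1 the site at -4.9 kb, whose window also overlaps that of the promoter, gave -0.57, and that at 26.3 kb gave -0.54. The site at -20.6 kb gave no ratio, since the caller had set it to the genome-wide background in both lists. With the genome-wide background divided by the smallest peak width of each list, which shifts every log2 ratio by 0.15, 0 of 10 were 1.5-fold lower, against 2.52% of all protein-coding genes. Relative to promoters of like local background the median was -0.17, and again 0 of 10 were 1.5-fold lower, against 1.19% of all.

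**Figure D3:**
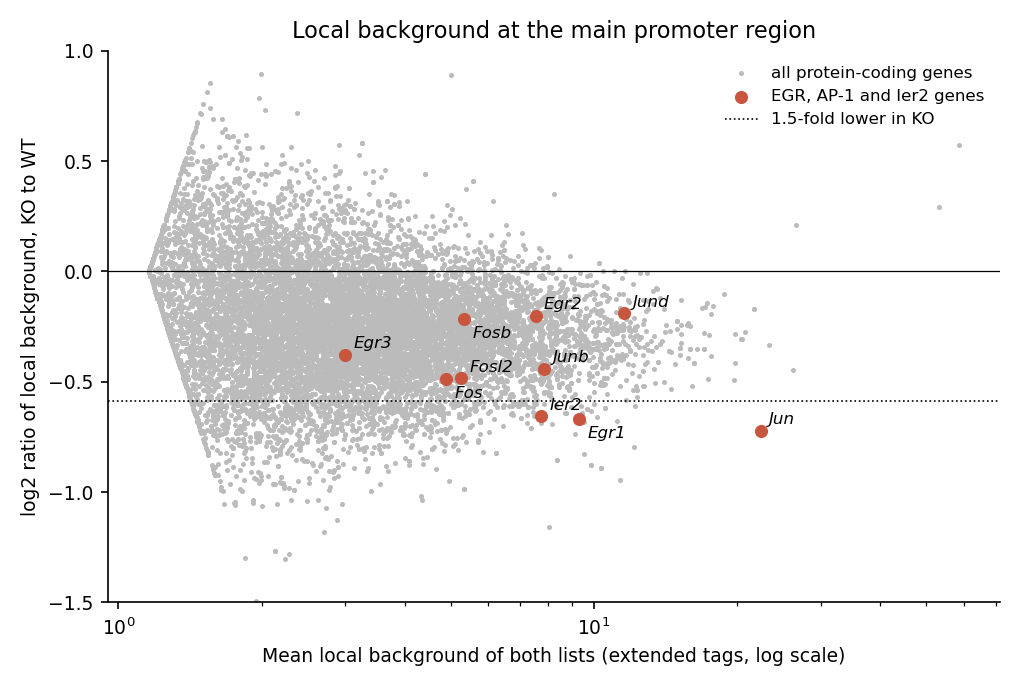
Log2 KO to WT ratio of the local background (vertical axis) against its mean level in both lists (horizontal axis, extended tags, log scale) at the main promoter region of 12411 protein-coding genes (grey) and of the 10 immediate early genes (red). Jun, Egr1 and Ier2 lie below the dotted line that marks a 1.5-fold lower value in KO. All 10 genes lie below 0, as does the median over all protein-coding genes (-0.25).

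Away from the promoters the counting intervals of the share of sites in both lists included the share of all regions of the same kind. Of all 53 regions, the 11 promoter regions among them, 40 (75.5%, 95% Wilson interval 62.4 to 85.1) were in both lists, against 64.8% of all regions. The WT list alone held 5 and the KO list alone 8. Of the 26 distal sites, more than 1000 bp from any annotated start, 16 were shared, 4 were in WT only and 6 in KO only, which is 61.5% (42.5 to 77.6), 15.4% and 23.1%. Over all distal regions the shares were 53.8%, 23.7% and 22.5%. Another 16 sites lay at the starts of other genes in the windows, such as Lsm4, Reep2 or Bin3, and 13 of those (81.2%, 57.0 to 93.4) were shared. Genome-wide 88% of coding promoter regions were shared, and 64.8% of regions near annotated starts that are not protein-coding. The 16 sites can be of either kind, and the interval includes both shares.

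**Figure D4:**
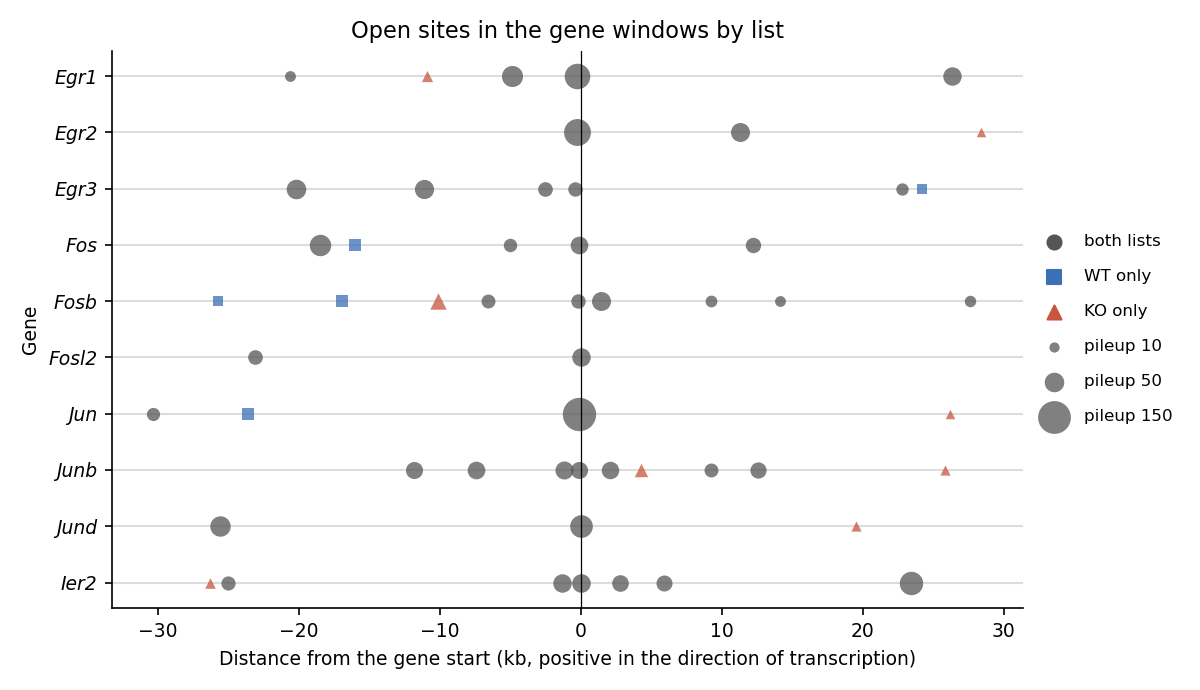
Open sites around each gene (rows) by distance of the summit from the gene start (horizontal axis, kb, positive in the direction of transcription), found in both lists (grey circles), in WT only (blue squares) or in KO only (red triangles), with area growing with the larger pileup. All sites within 4 kb of a start are shared, and most sites of 1 list only are small.

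The number of sites differed widely between the genes. Junb and Fosb had 9 regions each and Ier2 had 7, while Egr2, Jund and Fosl2 had 3, 3 and 2. Junb lies among 6 other protein-coding genes, whereas no other protein-coding gene lies in the windows of Fos, Fosl2 and Jun. The bases covered by peaks over the 10 windows summed to 43720 in WT and 43565 in KO. They were fewer in KO at 5 of 10 genes, against 51.2% of all protein-coding windows with a peak. The differences ran from -1250 bp in KO at Fos, where 4039 bp were covered in WT and 2789 bp in KO, to 2239 bp at Junb, with 4964 bp and 7203 bp.

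Over the 16 shared distal sites the median log2 ratio was 0.06, against 0.22 over all shared distal regions, and 6 of 16 were below 0, against 31.5% of all. At least 1.5-fold higher in KO were 2 of 16, against 20.3% of all, and at least 1.5-fold lower were 0 of 16, against 3.85%. By the fold enrichment the median was 0.30, against 0.25 for all. Of all 40 shared sites, 2 had a counting interval wholly above 0, the Fos site at -18.5 kb and the Egr2 promoter, against 5.39% of all shared regions. None had one wholly below 0, against 0.377%.

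The Fos site 18.5 kb upstream had the highest ratio. Its WT pileup was 36 and its KO pileup 61. The log2 ratio of 0.85 (0.23 to 1.48) stood at percentile 92.5 of shared distal regions. Its fold enrichment was 7.72 in WT and 14.2 in KO, percentiles 66.2 and 92.9 of the lists. The Fosl2 site 23.1 kb upstream followed with 16 in WT and 26 in KO (0.79, -0.17 to 1.78). The third was the site 22.8 kb downstream of the Egr3 start, next to Bin3, with 11 and 17 (0.71, -0.46 to 1.95). A Fos site 12.2 kb downstream, with 26 in WT and 29 in KO, held a CArG box. Both Fos sites are shown in 200 bases around the summit, the first as the site with the highest ratio and the second for its box, in capitals (chr12:85455288-85455487 and chr12:85485944-85486143, plus strand).
Fos -18.5 kb: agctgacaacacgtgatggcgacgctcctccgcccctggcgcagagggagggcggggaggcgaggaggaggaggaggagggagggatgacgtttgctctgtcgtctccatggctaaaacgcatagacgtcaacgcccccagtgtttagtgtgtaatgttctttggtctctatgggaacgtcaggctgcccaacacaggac
Fos +12.2 kb: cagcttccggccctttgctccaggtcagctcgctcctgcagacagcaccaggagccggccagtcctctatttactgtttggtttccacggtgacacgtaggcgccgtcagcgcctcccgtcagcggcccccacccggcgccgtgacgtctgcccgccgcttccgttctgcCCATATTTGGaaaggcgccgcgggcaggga

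The lowest shared sites after the Egr3 promoter were a site 2.8 kb downstream of the Ier2 start and the Junb promoter. The Ier2 site had 35 in WT and 22 in KO (-0.58, -1.42 to 0.23). Its fold enrichment was 2.95 in WT and 3.04 in KO, at percentiles 0.567 and 0.391 of the lists.

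**Figure D5:**
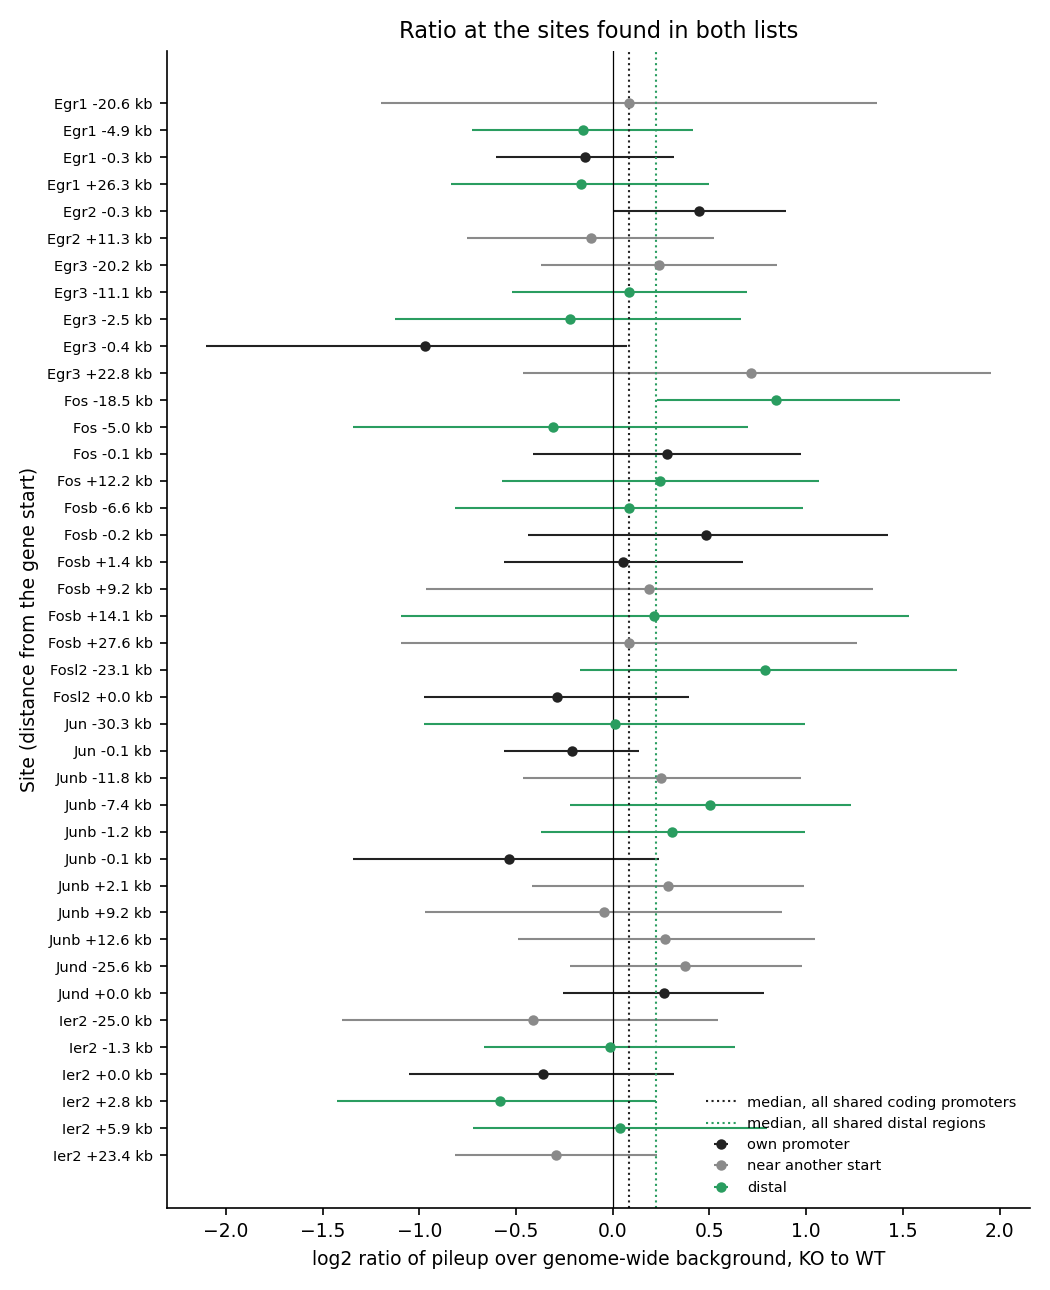
Log2 ratio of KO to WT pileups, each over its genome-wide background (horizontal axis), with its exact 95% binomial interval at each of the 40 shared sites (rows, named by gene and distance from its start), for promoters of the gene (black), sites near another start (grey) and distal sites (green). The dotted lines mark the medians over all shared coding promoters (0.09) and all shared distal regions (0.22), and most intervals span both.

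Sites found in 1 list only were mostly weak, and the level in the other list is not known. In the WT list the strongest were a site 16.0 kb upstream of Fos and one 16.9 kb upstream of Fosb, both with a pileup of 17, and one 23.6 kb upstream of Jun with 13. In the KO list they were sites 10.1 kb upstream of Fosb with 34, 4.3 kb downstream of the Junb start with 21, and 10.9 kb upstream of Egr1 with 13. The Fosb site, in an exon of the noncoding gene D830036C21Rik, had a fold enrichment of 8.47, at percentile 60.1 of the KO list. The Junb site was wide, at 654 bp, but its fold enrichment of 3.49 put it at percentile 2.22. The Fosb sequence is shown as the strongest site of 1 list only (chr7:19320026-19320225, plus strand, with EGR and RUNX motifs in capitals).
Fosb -10.1 kb: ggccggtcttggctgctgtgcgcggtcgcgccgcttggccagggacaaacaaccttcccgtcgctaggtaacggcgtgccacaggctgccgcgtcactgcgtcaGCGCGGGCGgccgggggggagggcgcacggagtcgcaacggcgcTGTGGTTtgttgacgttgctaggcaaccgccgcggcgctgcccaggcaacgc

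Within 200 bp around the summits, 7 of 53 sites held a CArG box, against 0.996% of all regions. They were the promoter regions of Egr1, Egr2 and Fosb (the upstream one), the Egr3 sites at -11.1 and -2.5 kb, the Fos site at 12.2 kb and the site in the Junb gene at 2.1 kb. Among promoters alone the share was 3 of 11, against 0.745% of coding promoter regions, and among distal sites 3 of 26, against 1.12%. The summit used was that of the list with the higher pileup. At the Fos promoter this was the KO summit (85473788). The Fos box lay outside that window but inside the same window around the WT summit (85473566). The AP-1 motif was found at 0 of 26 distal sites, which allows a share of up to 11.5% and so does not set them apart from the 10.4% of all distal regions. The PU.1 motif GAGGAAGT, bound by a factor of myeloid cells, was likewise found at 0 of 26 distal sites, which allows up to 11.5%, against 8.64% of all distal regions. The distal sites had a median GC content of 57.5%, against 49% of all distal regions, and the promoters 64.5%, against 65%.

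Other genes of the same pathways were set beside these. Of 40 listed partners, upstream factors and further immediate early genes, 36 had a promoter region in both lists, against 57.4% of all protein-coding genes. Batf2, Egr4, Ier3 and Cyr61 had none. The median log2 ratio of the 36 was 0.02, against 0.09 over all protein-coding genes. Srf, which encodes the factor that binds CArG boxes, had a WT pileup of 28 and a KO pileup of 49 (log2 ratio 0.89, 0.19 to 1.62). It was the 1 of 36 at least 1.5-fold higher in KO, against 7.3% of all, and 0 were as far lower. Its counting interval was the 1 that lay away from the median of all promoters. The local background was at least 1.5-fold lower in KO at 5 of the 36, Nab2 and Dusp1 among them, against 9.02% of all. Its median log2 ratio was -0.38, against -0.25 over all protein-coding genes. These calls were not recounted under the other scalings of the local background.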

How the data were processed

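ATAC-seq had been run on sorted mouse HSCs. By their account, the authors used trim_galore for trimming, Bowtie2 for alignment to mm10, Picard for duplicates and MACS2 without a fragment model for peaks (versions not given in the sources used here). The labels of both replicates name the same list, and whether reads were pooled is not stated. The deposited lists give the authors' fold enrichment (a ratio of summit pileup to local background), −log10 p, −log10 q and a display score that was not used.

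The whole-number pileup and the local background of each peak were solved from the fold enrichment and −log10 p under the caller's Poisson model (Python 3.11.15, scipy 1.17.1), matching within 0.001 for 99.99% of peaks. The solver was tested on simulated data. Ratios were taken over the genome-wide background, the median of the 1000 smallest local backgrounds (1.19 in WT and 1.13 in KO), with no pseudocount and exact binomial intervals. Read totals are unknown, so depth limits precision only through the pileups, and tags are not independent molecules. Peaks overlapping by at least 1 bp on the 19 autosomes and chromosome X formed regions. The GRCm38 sequence and the GENCODE M21 annotation match the authors' build. Gene starts were protein-coding starts within 100 bp of a RefSeq start where there was one. CArG (CC, then 6 A or T, then GG) and the other motifs were searched on both strands, and overlapping matches were counted.

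The members and gene lists were chosen with earlier results of these data known. All 10 members were named. The 3 strongest sites of 1 list only in each list, the 3 highest and 3 lowest shared sites, and pathway genes with no promoter region or with an interval away from the median of all promoters were also named. Genes of like pattern were not ranked, since each genotype has 1 list. Markers were checked by their promoter regions, and Hbb-b1 is not in the annotation. A call was a ratio of at least 1.5-fold. Windows, overlap rules, q thresholds, scales and promoter distances were varied. Sequence of chromosome 18 is not reported here. Some genes of the marker and pathway lists are counted but not reported here by name.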

Additional observations from a re-analysis of the deposited data

How the results depend on the processing

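No paired analysis was possible because there is 1 list per genotype, and for the same reason no replicate could be left out. The share of regions in both lists was 90% with windows of 10 kb, 62.3% when overlap of at least 50% of both peaks was required and 60.4% when the summits had to lie within 100 bp, and it stayed within its counting interval under the other windows and q thresholds, between 73.0% and 78.1%. All 10 promoters were shared at 500 and 2500 bp, and 8 among peaks with a −log10 q at or above 10. The summed difference in covered bases, -155 bp, was -379, -793 and -1872 bp with windows of 10, 50 and 100 kb and -95 bp once peaks under a −log10 q of 5 were dropped. It turned to 4397 bp, more in KO, once those under 10 were dropped. The cause was not tested. The number of members below 0 at the main promoter was 7 with raw pileups or relative to all shared regions and 2 with the fold enrichment. The median promoter ratio, -0.18, turned to 0.33 by the fold enrichment and to 0.019 with promoters within 2500 bp of a start. The median distal ratio, 0.06, was 0.30 by the fold enrichment and -0.16 relative to all shared distal regions. Under the other settings both moved by less than the counting error of the summed pileups, the promoter median between -0.34 and -0.025 and the distal median between -0.10 and 0.22, so the sign of the latter also changed. By fold enrichment the ratio at Egr1 was 0.46 and that at Jun 0.48, outside their counting intervals. The share of sites with an AP-1 motif, 3.77%, was 0% within 100 bp, which allows up to 5.66%, against 8.11% and 4.69% of all regions, and that with a CArG box ran from 7.55% to 17.0% between 100 and 400 bp. The local background was chosen for analysis after the pileups were seen, and its median ran from -0.55 to -0.17. Pileups of 8 to 155 limit what single sites can show, and 2 of the 40 shared sites had a counting interval away from 0. At the Egr2 promoter the lower bound, 0.004, was smaller than the 0.09 that scaling to the genome-wide background adds to each log2 ratio. That call therefore depended on the scaling.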
